A study of Mus musculus with 5 samples.

Results

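The proteasome is the protease that breaks down proteins tagged with ubiquitin. Its barrel, the 20S core, stacks rings of alpha and beta subunits, and its cap, the 19S regulatory particle, binds ubiquitin, unfolds the substrate and feeds it in; together they form the 26S proteasome. In cells exposed to interferon the catalytic beta subunits can be replaced by the immunoproteasome subunits, which favour peptides suited to display on MHC class I, and the PA28 activator can bind the core. In the hedgehog pathway that drives SHH medulloblastoma, GLI transcription factors are processed or destroyed by the proteasome once ubiquitin ligases have marked them.

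The genes described here are those whose symbol starts with Psm, a letter from a to g and a number. The rule found 50 of the 17739 genes in the deposited table, and all 50 matched exactly 1 gene in GENCODE M21, each protein coding. They comprise 31 constitutive 26S subunit genes (7 alpha, 7 beta, 6 ATPases, 3 other base and 8 lid genes), 3 immunoproteasome genes, 2 tissue-restricted core genes, 7 assembly chaperone genes, 4 activator genes and Psmf1. The remaining 2 are no subunits and match by name only: Psmc3ip, a recombination factor named for binding the Psmc3 protein, and Psme2b, a copy of Psme2. RNA came from medulloblastoma cells taken from the cerebellum of mice of genotype Math1-Cre;Gli2A, given doxycycline (DOX) from embryonic day 0, labelled GLI2 active, and all 5 libraries (tumours 1, 5, 8, 14 and 15) belong to this 1 group. Every sample thus carries Math1-Cre, which acts in the granule neuron lineage, and the R26;Gli2A allele, and no untreated, wild-type or tumour-free sample was compared. Cells were dissociated with papain, without a sort stated in the labels, so other cell types of the cerebellum can contribute RNA; in such a bulk sample more expressing cells and more RNA per cell cannot be told apart. The labels do not say that the libraries are separate animals, so errors measure the spread between these samples, which may be partly technical.

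Values are on a log2 scale, read as the regularised log of DESeq2: library size is corrected and transcript length is not. Levels of different genes are therefore compared after subtracting the log2 length in kb of the gene's coding transcript (the median over its protein-coding transcripts in the basic annotation), called here the level per transcript length. Of 10 genes listed for the tumour or the granule lineage, Zic1 (15.08 ± 0.05) and Ptch1 (14.47 ± 0.32) were the highest on the log2 scale (SD, n = 5). Atoh1, also called Math1, was the lowest at 8.62 ± 0.67. Column medians lay between 8.51 and 8.58. Read counts were not used here, so depth is unknown.

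The constitutive proteasome was abundant in all 5 tumours and the immunoproteasome was scarce. The median log2 value was 11.00 ± 0.03 (SD, n = 5) over the 31 constitutive subunit genes. It was 10.89 ± 0.04 over the 46 Psm genes with a mean of at least 5. Over the 13691 genes of the table with such a mean it was 9.40 ± 0.01. These medians are not corrected for length, and no value per transcript length over all genes is given here. Per transcript length, the immunoproteasome genes had a median of 4.95 ± 0.20, which was the value of Psmb8 in every tumour. Psmb9 averaged 3.30 and Psmb10 6.84 on this scale. The median of the constitutive catalytic genes was 10.79 ± 0.05, the value of Psmb7 in every tumour. It was 10.98 ± 0.06 for the other beta genes, 10.83 ± 0.03 for the alpha genes and 10.58 ± 0.03 for the ATPases. For the other base genes it was 10.50 ± 0.04 and for the lid 10.13 ± 0.02. The 31 constitutive subunit genes spanned 5.23-fold per transcript length, from Psma2 (9.09) to Psmb6 (11.48). With all annotated exons as the length the span was 5.95-fold, from Psmd11 (8.07) to Psmb2 (10.64). The assembly chaperones lay lower, at 8.26 ± 0.06 per transcript length.

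**Figure D1:**
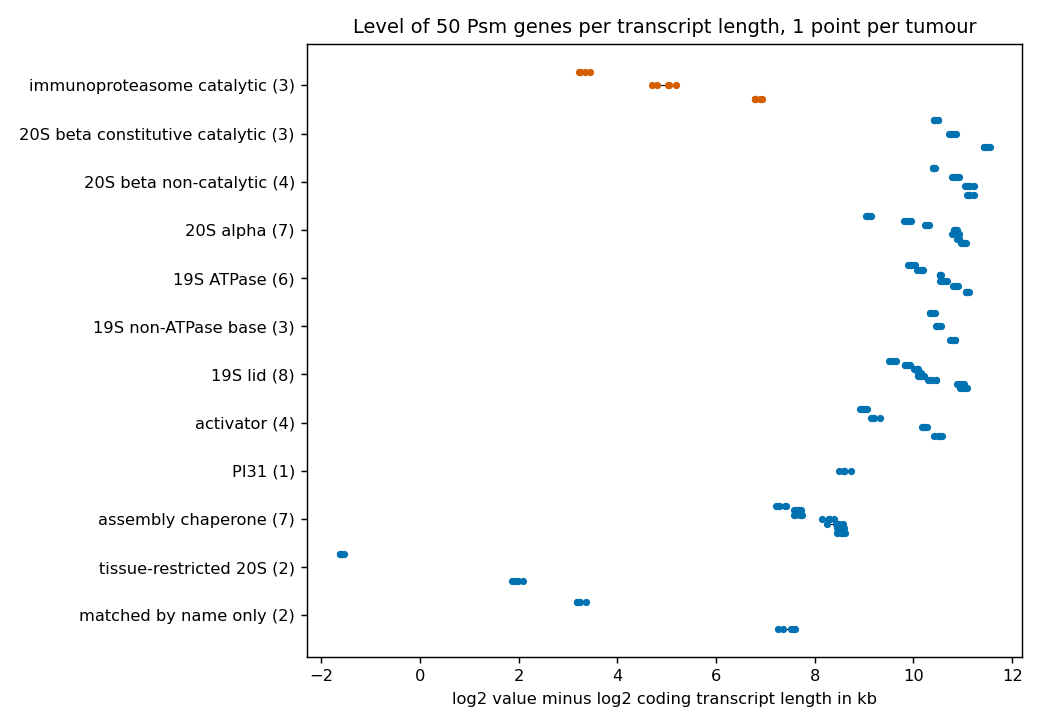
Level per transcript length (log2 value minus log2 length in kb of the coding transcript) of the 50 genes, grouped by role with the number of genes in brackets; each row of 5 points is 1 gene in the 5 tumours. The 3 immunoproteasome genes (orange) lie between 3.30 and 6.84 on average, left of every constitutive subunit gene (9.09 to 11.48).

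At each of the 3 catalytic sites the immunoproteasome gene was expressed far below the constitutive gene it replaces. Psmb8 (beta5i, chymotrypsin-like activity; GRCm38 chromosome 17, 34197721 to 34201454) had log2 values of 5.73, 5.75, 5.90, 5.41 and 5.51 in tumours 1, 5, 8, 14 and 15. Its partner Psmb5 (beta5; chromosome 14, 54614119 to 54618022) had 10.10, 10.02, 10.02, 10.03 and 10.10 in the same order. The 2 genes did not overlap in any tumour: Psmb8 minus Psmb5 was -4.40 ± 0.21 (SD, n = 5), a 21.1-fold difference without length correction. Per transcript length it was 45.1-fold and with all exons as the length 79.2-fold.

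Psmb9 (beta1i, chromosome 17, 34181987 to 34187764) was the lowest of the 6 catalytic genes, at 3.79, 3.87, 3.69, 3.65 and 3.69 in tumours 1, 5, 8, 14 and 15. Psmb6 (beta1, caspase-like activity; chromosome 11, 70525367 to 70527858) had 11.19, 11.10, 11.22, 11.16 and 11.09. The difference, -7.42 ± 0.12, was the widest of the 3 sites. Psmb10 (beta2i, chromosome 8, 105935735 to 105938444) stood nearest its partner, with 7.32, 7.28, 7.18, 7.18 and 7.17. Psmb7 (beta2, trypsin-like activity; chromosome 2, 38588036 to 38644087) had 10.98, 10.94, 11.06, 11.07 and 10.99. Psmb10 minus Psmb7 was -3.78 ± 0.11, or 13.8-fold without length correction (15.5-fold per transcript length and 6.85-fold with all exons).

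**Figure D2:**
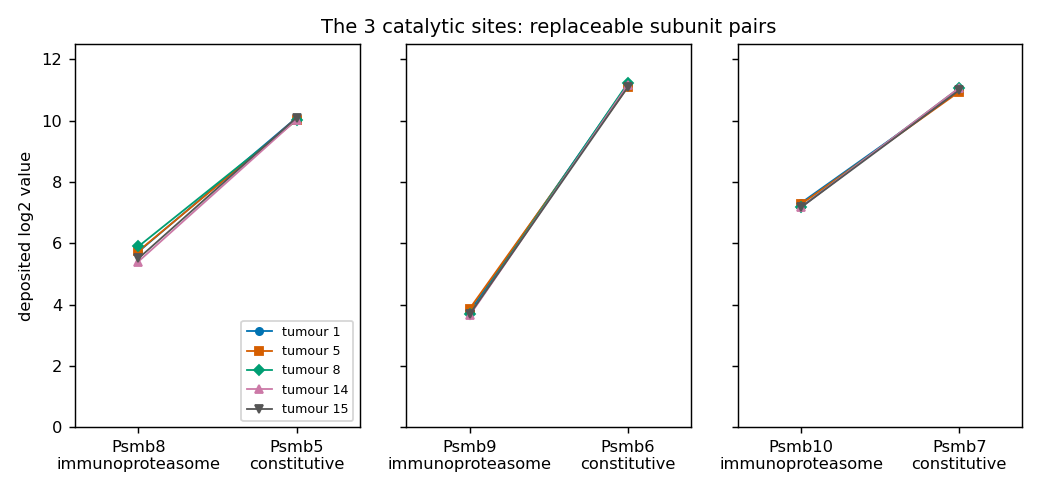
Deposited log2 value of each immunoproteasome gene (left) and the constitutive gene of the same catalytic site (right), 1 line per tumour. In all 5 tumours the immunoproteasome gene is the lower end of the line, with a mean difference of -4.40 for Psmb8 minus Psmb5, -7.42 for Psmb9 minus Psmb6 and -3.78 for Psmb10 minus Psmb7.

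Every one of the 15 differences (3 sites in 5 tumours) was below 0. The exact two-sided sign-flip permutation test gave p = 0.0625 for each site (adjusted 0.0625 over 3 sites), the smallest that 5 libraries allow, so no comparison of this kind can pass 0.05. The order of the sites also held in 5 of 5 tumours: the Psmb8 gap was narrower than the Psmb9 gap by 3.02 ± 0.24 and wider than the Psmb10 gap, with a difference of -0.61 ± 0.22 (-1.54 per transcript length and -3.53 with all exons), and the Psmb9 gap minus the Psmb10 gap was -3.63 ± 0.07 (exact permutation p = 0.0625, adjusted 0.0625 over 3 differences). Per transcript length the mean differences were -5.49 for Psmb8 minus Psmb5, -8.18 for Psmb9 minus Psmb6 and -3.96 for Psmb10 minus Psmb7; with all exons as the length they were -6.31, -8.38 and -2.78. On the transcript-length scale Psmb10 made up 6.06% ± 0.45 of the beta2 pair, Psmb8 2.19% ± 0.32 of the beta5 pair and Psmb9 0.345% ± 0.030 of the beta1 pair (SD, n = 5). With all exons as the length these shares were 12.8%, 1.26% and 0.299%. The regularised log pulls weakly expressed genes towards their mean over the libraries, so differences of Psmb9 between tumours are understated.

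Psmb8 and Psmb9 lie in the MHC region of chromosome 17, interleaved with Tap1 and Tap2, which encode the transporter that carries proteasome products into the endoplasmic reticulum. In the annotation Psmb9 and Tap1 are on opposite strands and overlap at their 5′ ends, with starts 211 bases apart, and Psmb8 starts 9957 bases from Psmb9. No source used here gives the strand setting of the read counting, so reads of the overlap could be counted to either gene. Tap1 averaged 6.80 ± 0.13 and Tap2 7.34 ± 0.15 on the log2 scale.

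Promoter sequence is shown for the catalytic genes, whose levels are set against each other above. RefSeq (GRCm38.p6) gave a window of 250 bases before to 50 after the start for 42 of the 50 genes; Psmb7, Psmb1, Psmb2, Psmc3, Psmd3, Psmd7, Psma8 and Psmg2 had none. Both strands were searched for the interferon-stimulated response element (ISRE, GAAANNGAAA), the STAT element GAS (TTCNNNGAA), an NF-kB element (GGGANNTTCC), the antioxidant response element bound by the proteasome gene activator Nfe2l1 (ARE, TGACNNNGC), the CCAAT box (CCAAT) and the GC box (GGGCGG). Sequences run 5′ to 3′ on the gene's strand, up to the first base of any annotated exon, and capitals mark a match to the first 4 motifs.
Psmb10, chr8:105938445-105938642, minus strand: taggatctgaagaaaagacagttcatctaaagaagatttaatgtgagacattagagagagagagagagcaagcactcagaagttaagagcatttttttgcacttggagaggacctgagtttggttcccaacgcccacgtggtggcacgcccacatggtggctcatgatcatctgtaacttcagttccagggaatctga
Psmb5, chr14:54618023-54618245, minus strand: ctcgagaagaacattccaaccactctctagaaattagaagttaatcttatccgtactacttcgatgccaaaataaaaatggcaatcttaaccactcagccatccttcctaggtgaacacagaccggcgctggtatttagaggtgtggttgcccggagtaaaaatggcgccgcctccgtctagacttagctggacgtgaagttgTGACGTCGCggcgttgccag
Psmb6, chr11:70525107-70525356, plus strand: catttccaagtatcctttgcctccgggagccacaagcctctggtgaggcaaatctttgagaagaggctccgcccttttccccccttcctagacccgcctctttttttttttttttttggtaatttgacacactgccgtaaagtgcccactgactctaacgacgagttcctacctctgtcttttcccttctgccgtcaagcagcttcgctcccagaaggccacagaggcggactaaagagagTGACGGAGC

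The constitutive Psmb5 and Psmb6 windows each held an ARE match, 47 and 9 bases before the start, and the Psmb10 window held none of the first 4 motifs. The windows of Psmb8 and Psmb9 begin inside an annotated exon, so only the 30 bases around a match are given, with the match in capitals. Both windows lie inside the GENCODE gene, and bases before the GENCODE start were not searched for these 2 genes.
Psmb8, chr17:34198088-34198117, plus strand, GAS: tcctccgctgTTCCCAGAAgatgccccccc
Psmb9, chr17:34187321-34187350, minus strand, CCAAT box: gcgcagccgctgATTGGaaagccgagcccc
None of the 3 immunoproteasome windows held an ISRE match in these letters. Among the 42 genes the ISRE was found in 5 (11.9%, against 3.99% of all 27025 genes with a window), namely Psmb3, Psmd4, Psmd9, Psme1 and Psmg4. For the activator gene Psme1 it lies after the RefSeq start, which differs from the GENCODE gene start.
Psme1, chr14:55578493-55578522, plus strand, ISRE: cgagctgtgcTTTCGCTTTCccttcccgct
The ARE was found in 6 of 42 genes (14.3%, against 14.0% of all genes), the GAS in 3 (7.14%, against 9.55%), the NF-kB element in 1 (2.38%, against 1.63%), the CCAAT box in 15 (35.7%, against 41.1%) and the GC box in 23 (54.8%, against 38.2%). These matches describe letters in the window and were not tested.

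Constitutive subunits differed little between tumours. The median SD was 0.044 over the 31 constitutive subunit genes and 0.054 over the 46 Psm genes, against 0.11 over the 13691 genes. Over the 4402 genes in the same range of levels as the constitutive subunits (10.05 to 12.37) it was 0.085, and all 31 constitutive subunit genes lay below that value. Set against genes within 0.5 log2 of its own mean, a Psm gene had a smaller SD than the median gene in 44 of 46 cases. Psmc3, an ATPase of the base, had log2 values of 11.27, 11.25, 11.25, 11.26 and 11.25 in tumours 1, 5, 8, 14 and 15, the second smallest SD (0.0094) of the 13691 genes. The core genes Psmb1 (11.23, 11.22, 11.26, 11.23 and 11.21) and Psma1 (11.02, 11.02, 11.04, 11.01 and 10.98) followed among the Psm genes. Of the 46 genes, 3 had a range over the tumours above 1.2-fold (51.6% of all genes did), 0 above 1.5-fold (14.7%) and 0 above 2-fold (3.79%).

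**Figure D3:**
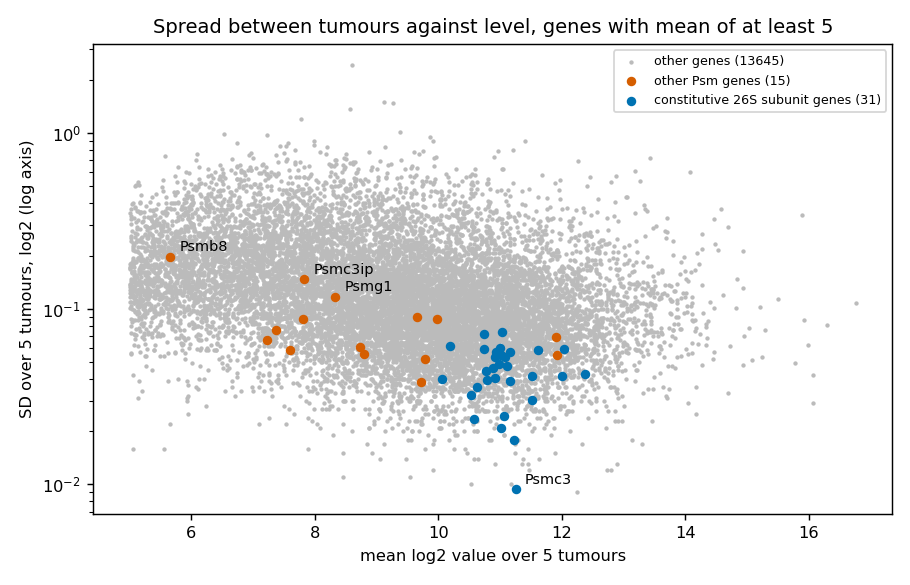
SD over the 5 tumours (log axis) against the mean log2 value for genes with a mean of at least 5: 31 constitutive 26S subunit genes (blue), 15 other Psm genes (orange) and the rest of the 13691 genes (grey). The constitutive genes lie between 0.0094 and 0.07, in the lower part of the grey cloud at their level, and Psmb8 at 0.20 is the most variable Psm gene.

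The 3 genes above 1.2-fold were Psmb8 (1.41-fold), Psmc3ip (1.28-fold) and Psmg1 (1.25-fold). Psmb8 was highest in tumour 8 and lowest in tumour 14, and 62.2% of genes within 0.5 log2 of its mean had a smaller SD. Psmc3ip, the recombination factor, had 7.89, 7.62, 7.97, 7.92 and 7.73 in tumours 1, 5, 8, 14 and 15, lowest in tumour 5. Psmg1, a chaperone of core assembly, had 8.38, 8.32, 8.15, 8.46 and 8.34, lowest in tumour 8. Psmd9, a chaperone of the base, had 9.67, 9.67, 9.78, 9.67 and 9.53, highest in tumour 8 and lowest in tumour 15.

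Although small, the deviations had a shared direction in many of the 46 genes in tumours 1 and 15, but not in tumour 8. Against the median of the other 4 tumours, 35 of 46 genes were higher in tumour 1. For tumours 8 and 15 the counts were 23 and 12. Over the 13691 genes they were 7116, 6975 and 6515 in tumours 1, 8 and 15. Of the 46 genes, 17 (37.0%) were highest in tumour 1, against 20.2% of all genes, and 16 (34.8%) in tumour 8, against 18.5%. The others were highest in tumour 5 (4 genes, against 24.1% of all genes), tumour 14 (6, against 15.8%) or tumour 15 (3, against 21.4%). Tumour 15 was the lowest for 20 genes (43.5%, against 22.9% of all genes), tumour 8 for 14 (30.4%, against 22.6%), tumour 5 for 8 (17.4%, against 24.6%), tumour 14 for 4 (8.70%, against 13.0%) and tumour 1 for 0 (against 16.9%). Relative to the median of the other 4 tumours, the median deviation of the 31 constitutive subunit genes was 0.045 in tumour 1, 0.030 in tumour 8 and -0.044 in tumour 15, against 0.0059, 0.0037 and -0.0082 over all genes. Over the 46 genes it was 0.046, 0.0057 and -0.042. All 4 non-catalytic beta genes (Psmb1, Psmb2, Psmb3 and Psmb4) were highest in tumour 8 and lowest in tumour 15. Psmb3, the widest of them (1.14-fold), had 10.85 in tumour 8 and 10.66 in tumour 15. Psmb1, the narrowest (1.03-fold), had 11.26 and 11.21. With values centred on each library's median, tumour 8 was lowest for 6 of the 46 genes instead of 14, against 18.98% of all genes. Tumour 15 was then lowest for 29 genes instead of 20, against 32.9% of all genes.

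**Figure D4:**
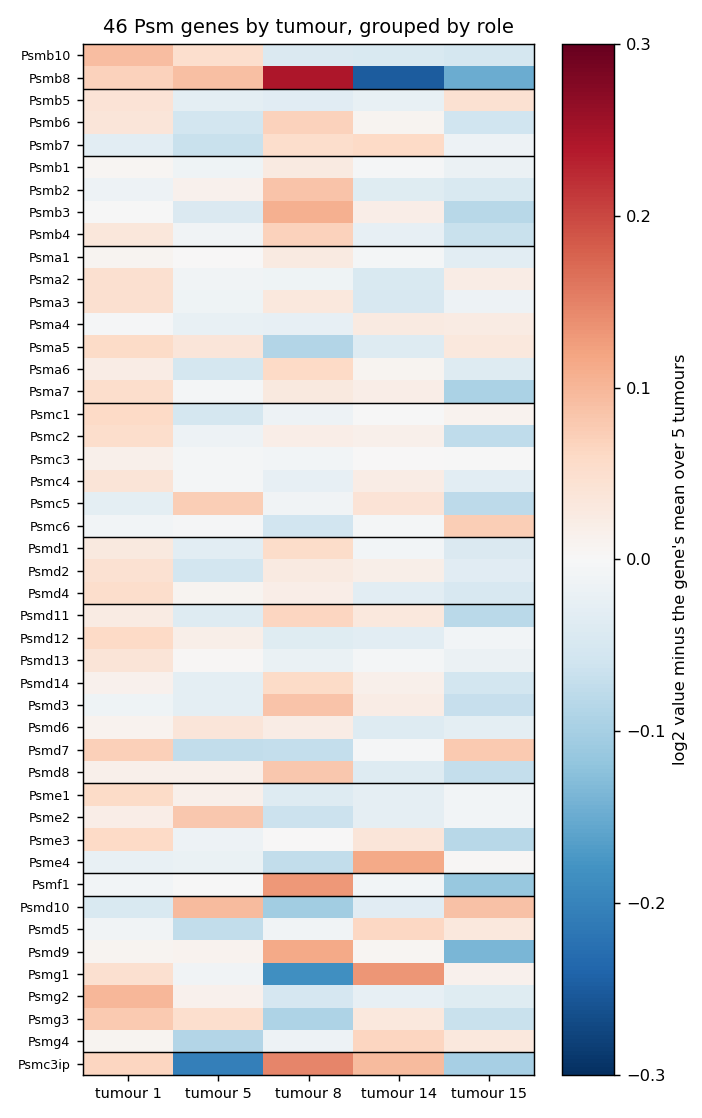
Log2 value minus the gene's mean over the 5 tumours for the 46 Psm genes with a mean of at least 5, in blocks by role (immunoproteasome at the top, then constitutive catalytic, other beta, alpha, ATPase, other base, lid, activator, Psmf1, chaperones and Psmc3ip). Most cells are pale, and Psmb8 is dark in tumours 8 and 14. The 4 non-catalytic beta genes lie above their means in tumour 8 and below them in tumour 15, only faintly for Psmb1 (11.26 and 11.21, mean 11.23).

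In the 19S cap, the ATPases ran from Psmc2 (10.98 ± 0.05) to Psmc1 (11.52 ± 0.04) on the log2 scale. Of the 6, 4 were highest in tumour 1 (20.2% of all genes were), with ranges of at most 1.09-fold. Of the other base genes, Psmd2, a scaffold that binds ubiquitin-like domains, averaged 12.37 ± 0.04 and Psmd4, a ubiquitin receptor, 10.91 ± 0.04. The lid ran from Psmd6 (10.53 ± 0.03) to Psmd3 (12.04 ± 0.06), with Psmd14, the deubiquitinase that clips ubiquitin from the substrate, at 10.77 ± 0.04. In the core ring, Psma5 (10.20 ± 0.06) and Psma3 (11.16 ± 0.04) were the lowest and highest alpha genes on this scale. The remaining constitutive genes had means between 10.57 and 12.01.

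Among the activators, the interferon-inducible PA28 genes lay below the nuclear activator gene Psme3. Psme1 (PA28 alpha, chromosome 14, 55578123 to 55581529) had 9.78, 9.74, 9.69, 9.70 and 9.72 in tumours 1, 5, 8, 14 and 15. Psme2 (PA28 beta, chromosome 14, 55587441 to 55591113) had 8.82, 8.88, 8.74, 8.77 and 8.79. Psme3 (PA28 gamma) averaged 11.92 ± 0.05, so that Psme1 minus Psme3 was -2.20 ± 0.06 and Psme2 minus Psme3 was -3.12 ± 0.08, below 0 in 5 of 5 tumours each (exact sign-flip permutation p = 0.0625, adjusted 0.0625 over 4 pairs). The size rested on the length: per transcript length the differences were -0.29 and -1.52, and with all exons -1.78 and -2.38. Psme4, which encodes PA200, averaged 11.90 ± 0.07, or 9.21 per transcript length. Psmf1, which encodes the core-binding protein PI31, averaged 9.98 ± 0.09. Tissue-restricted copies were at the bottom of the table: Psma8, an alpha subunit of the testis, lay between 2.31 and 2.53 over the tumours and Psmb11, a beta subunit of thymic epithelium, averaged 0.50 ± 0.03. Psma8 minus Psma7 was -8.53 ± 0.11 and Psmb11 minus Psmb5 was -9.55 ± 0.06, with the same test values. Of the chaperones, Psmg3 (7.37 ± 0.08) was the lowest and Psmd5 (9.79 ± 0.05) the highest on the log2 scale. Psme2b averaged 2.98 ± 0.07; how reads shared with Psme2, or with processed pseudogenes such as those of Psmb5, Psmb6 and Psmb7, were assigned is not given in the sources used here.

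Psm genes inducible by interferon (Psmb8, Psmb9, Psmb10, Psme1 and Psme2) did not share 1 order of tumours. Psmb9, Psmb10, Psme1 and Psme2 were each higher in tumours 1 and 5 than in any of the other 3, a pattern chosen after seeing the values that 8 of 46 genes (17.4%) showed, against 11.3% of all genes; Psmb9, with a mean under 5, is not among these 8. Psmb8 was highest in tumour 8. Summed over 17 interferon response genes, the log2 level was 11.27, 11.52, 11.30, 11.25 and 11.27 in tumours 1, 5, 8, 14 and 15, with 14 of the 17 genes highest in tumour 5. Stat2, an interferon signal transducer, averaged 9.31 ± 0.21, and Irf1, a factor that acts on immunoproteasome genes, was 7.60, 8.23, 8.21, 7.75 and 8.08. Nlrc5, an activator of MHC class I genes, was near the level of Psmb9 on this scale, at 3.62 ± 0.18.

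Markers of other cells also differed between the tumours. Microglia and macrophage markers (14 of 14 in the table, summed log2 level 13.36 to 14.17) were highest in tumour 5 for 12 genes, and Csf1r averaged 11.24 ± 0.32. Endothelial markers (10 of 10, 12.49 to 13.29) were highest in tumour 5 for 8 genes and oligodendrocyte markers (9 of 9, 14.52 to 15.91) for 9. Class II genes (7 of 7, 9.07 to 10.15) were highest in tumour 1 for 4 genes and lowest in tumour 14 for 4, with Cd74 at 8.59, 7.26, 7.94, 6.90 and 8.13 in tumours 1, 5, 8, 14 and 15. Class I genes (11 of 11, 14.71 to 14.96) were highest in tumour 5 for 6, while their sum was highest in tumour 1, where the abundant chaperone genes Calr, Pdia3 and Canx were highest; H2-K1 had 8.25, 8.81, 8.34, 8.12 and 8.16. Of 8 T cell markers 3 were in the table (summed log2 level 6.17 to 6.76). Cd4 averaged 6.20 ± 0.27, Lck 3.84 ± 0.13 and Cd3g 0.49 ± 0.04. The summed log2 level of 10 genes listed for the tumour or the granule lineage was highest in tumour 8, as Psmb8 was. It was 17.02, 16.94, 17.12, 17.08 and 17.04 in tumours 1, 5, 8, 14 and 15. These 10 include Gli1, Ptch1, Mycn and Mki67, so the sum does not measure granule cells alone. Of the 10, 3 were highest in tumour 8. The lowest mean of any gene was 0.34, so a value above 0 does not show that a marker was detected. The part of these markers in the levels of the inducible Psm genes was not tested.

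**Figure D5:**
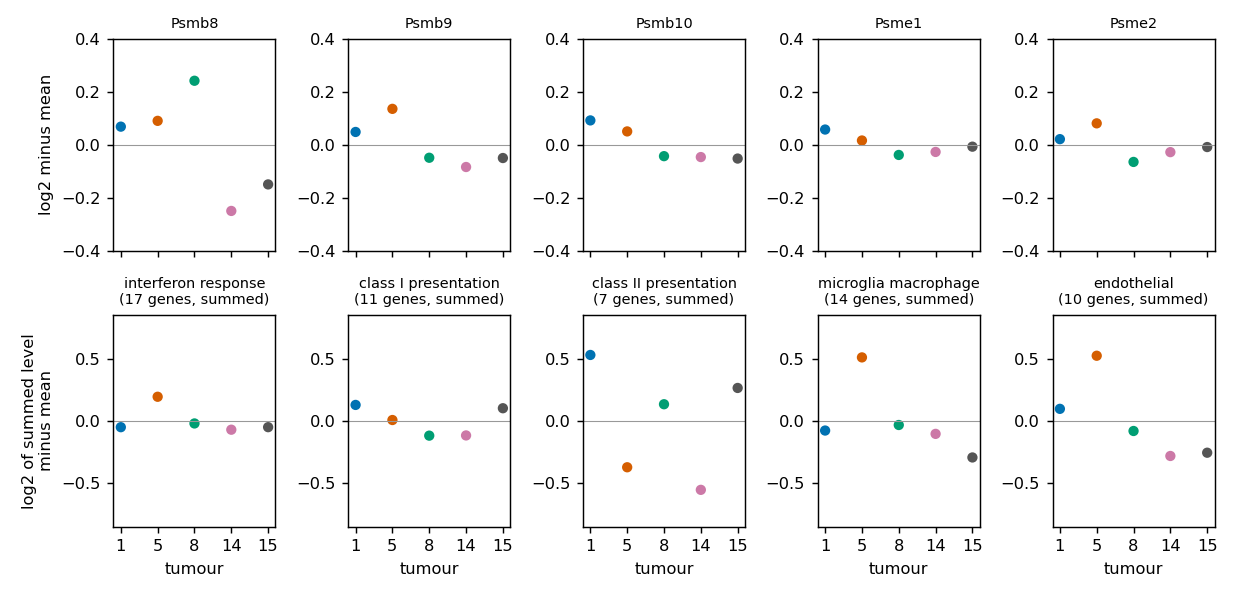
Top: log2 value of each interferon-inducible Psm gene minus its mean over the 5 tumours. Bottom: log2 of the summed level of each marker list minus its mean, on a wider axis. Psmb9 and Psme2 peak in tumour 5 as the interferon, microglia and endothelial sums do, Psmb10 and Psme1 peak in tumour 1 as the class I and class II sums do (6 of the 11 class I genes peak in tumour 5), and Psmb8 peaks in tumour 8, where none of the 5 sums drawn does.

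Genes that work with the proteasome had median SDs between 0.06 and 0.08 per list. The median SD was 0.11 over all genes and 0.094 over genes with a mean of at least 8. The lists were not matched by level. Of 13 symbols listed as partners, older synonyms included, 10 were in the table, with a median SD of 0.07. Zfand5, which stimulates the proteasome, averaged 12.60 ± 0.16, Ecpas, an adaptor, 11.50 ± 0.04 and Uchl5, a deubiquitinase of the cap, 9.13 ± 0.07. Of these 10 genes, 4 were highest in tumour 8 (18.5% of all genes were) and 3 in tumour 1 (20.2%); 5 were lowest in tumour 5 (24.6%) and 4 in tumour 15 (22.9%). The median SD was 0.08 over 12 genes listed for proteasome gene expression, its activator Nfe2l1 or nuclear import of the proteasome. Among them Vcp, the segregase that extracts Nfe2l1 from the membrane, averaged 13.05 ± 0.04 and the nuclear importer Ipo9 12.22 ± 0.06. Nfe2l3 averaged 5.59 ± 0.12, and Maff varied most (8.53 ± 0.29). Of 10 ubiquitin and shuttle genes (median SD 0.07), Uba1, the ubiquitin-activating enzyme, averaged 13.74 ± 0.08 and Ubb, a polyubiquitin gene, 13.49 ± 0.04. Of the ligase genes that mark GLI proteins, 9 of 10 symbols were in the table (median SD 0.06): Cul3 averaged 12.16 ± 0.06, Skp1a 12.02 ± 0.06 and Numb, an adaptor for Itch, 9.46 ± 0.17.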

How the data were processed

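Per the submitters' processing notes, reads were handled with STAR 2.4.1, featureCounts from Subread 1.4.6 and DESeq2, on mm10 (GRCm38); annotation, gene filter, strand setting and parameters: not given in the sources used here. Deposited by the authors are log2 values per gene symbol, read here as regularised-log values from the table's short name. Of 7 columns, 5 match samples; the other 2 match none and were not used, although they may have entered the transformation. Depth is unknown.

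The members and gene lists were chosen with earlier results of these data known, and lengths of coding transcripts were added after seeing the data. Positions and exon lengths came from GENCODE M21. Genes were named by a fixed rule: the catalytic genes, Psme1, Psme2, members of extreme SD or mean, and, per list, 2 genes of highest mean, 1 of lowest and 1 of largest SD, besides Tap1 and Tap2; Psmd14, Irf1 and the tumour values of Psmb3, Cd74 and H2-K1 were added after seeing values. Some genes the rule names are not reported here. Differences within a tumour were tested by flipping their signs in all 32 patterns (exact permutation test, two-sided) with Benjamini-Hochberg adjustment. Counts across genes used those with a mean of at least 5 and no test. Steps were tested on simulated data. Protein sequences were not used here, and protein identity, planned, was not computed. Python 3.11.15, numpy 2.4.6, pandas 2.3.3, scipy 1.17.1 and matplotlib 3.10.9 were used.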

Additional observations from a re-analysis of the deposited data

Results flagged for a closer look

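Of 177 values examined (the 50 Psm genes, listed genes and pair differences), 9 had 1 tumour far from the other 4; chance flags about 1 in 20 such groups. None of the 9 is a Psm gene, and none of the pair differences was flagged. Tumour 5 stood high for the endothelial markers Cldn5 (10.14) and Flt1 (10.98) and for the interferon response genes Oas1a (3.10) and Stat2 (9.67). Tumour 1 stood high for Uba1 (13.87) and low for the cullin gene Cul1 (11.47). Tumour 15 stood low for Akirin2 (11.01), which acts in nuclear import of the proteasome, and for the shuttle gene Ubqln2 (12.75). Tumour 14 stood low for the class II gene H2-DMb1 (5.53). All values are on the deposited log2 scale.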

How the results depend on the processing

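No paired analysis was possible because all libraries belong to 1 group, so no replicate numbers pair libraries across groups; differences between genes were taken within each tumour. Of the recomputed values, 124 were labelled unchanged and 14 moved, and the cause was not tested. Levels and SDs were judged by the spread between tumours, counts by a factor of 1.5 and tests by direction alone. Tested differences had 1 sign in all 5 tumours, so leaving out 1 tumour could not change the direction. Their size did move with length: Psmb8 minus Psmb5 was -4.40 on the log2 scale and -6.31 with all exons. Psme1 minus Psme3 was -2.20 and, per transcript length, -0.29. The median level of the Psm genes, 10.79 over all 50, was 9.70 as a mean over genes, 10.89 where the mean reached 5 and 10.85 without Psmc3ip and Psme2b. Their median SD, 0.054, was 0.066 with values centred on the library median and 0.044 from the median absolute deviation. Genes ranging over 1.2-fold numbered 5 with centring and 1 with a mean of at least 8. With centring, 2 of 46 genes were highest in tumour 5 (20.3% of all genes), 1 was highest in tumour 15 (14.9%), 6 were lowest in tumour 8 (18.98%) and 1 was lowest in tumour 14 (7.60%); with no filter on low values, 7 were highest in tumour 5 and 1 was lowest in tumour 1. In the 250 bases before the start alone, 3 genes held the ISRE (7.14%, against 3.46% of all genes with a window). Leaving out 1 tumour at a time moved Psmb8 minus Psmb5 between -4.47 and -4.34, the median SD between 0.046 and 0.056, and the genes over 1.2-fold between 2 and 3. For the counts over 1.2-fold and those with no filter, the share of all genes under the same setting is not given here. A moved count of that kind may therefore reflect the setting and not the Psm genes. The smallest exact permutation p with 4 libraries is 0.125. Depth is unknown, so no limit for low genes such as Psmb9 can be given.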
